A study of Rattus norvegicus with 6 samples.

Results

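Integrin subunits were examined in cultured neonatal rat ventricular cardiomyocytes after beta-adrenergic stimulation. The list named 10 rat integrin genes, and a row of the deposited mRNA table carried a RefSeq transcript of 8 of them, out of 20032 genes in that table. These 8 were the alpha subunit genes Itga1, Itga5, Itga6 and Itga7 and the beta subunit genes Itgb1, Itgb3, Itgb5 and Itgb6, each measured by 1 probe. All 8 were tested. Itga2 and Itgav, also on the list, were not analysed here.

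The samples were 3 cultures given 10 µM isoproterenol, a synthetic agonist of beta-adrenergic receptors that is used to induce cardiomyocyte hypertrophy, for 24 h, and 3 untreated cultures. All cells came from Sprague-Dawley pups aged 1 to 3 days, were depleted of fibroblasts by a period of attachment to uncoated plastic, and stood in serum-free medium before the treatment. The series text speaks of transfected replicates and the labels of passages, which do not match this protocol, so the groups follow the sample titles. Nothing ties a replicate to a litter or culture day, so a p-value measures only the spread between these samples, which may be technical.

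Integrins are receptors of the plasma membrane, each made of 1 alpha and 1 beta chain, that hold cells to the extracellular matrix and carry force and signals across the membrane. The alpha chain largely sets which matrix protein is bound. In heart muscle, integrins that contain the beta1 chain are the main matrix receptors: they gather at the costameres, which fasten the Z-discs of the sarcomere to the membrane, and through talin, vinculin, integrin-linked kinase and focal adhesion kinase they take part in the response to mechanical load.

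The 6 arrays lay on 2 slides, told apart by scan time and by the array positions that both scans share. Slide 1 held isoproterenol replicate 1 and the 3 controls, and slide 2 held isoproterenol replicates 2 and 3. Slide and treatment therefore partly coincide. The slides differed: between 61.3% and 70.9% of the mRNA probes were well above background on slide 2 and between 97.7% and 99.8% on slide 1, and the median negative-control signal was 84 to 87 scanner units on slide 2 and 27 to 30 on slide 1. The median change of all 19941 genes tested was 0.07 on the log2 scale. All 11 tested cardiomyocyte markers were well above background on all 6 arrays.

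Levels are given as log2 signal relative to the 75th percentile of the same array, and changes as isoproterenol minus control with the standard error of limma's linear model (n = 3 per group). A gene is said to have risen or fallen when its adjusted p (limma's moderated test, two-sided, Benjamini-Hochberg over all genes tested) was under 0.05. Of all genes 16.1% passed by this rule, 10.2% rising and 5.92% falling. Levels of different genes are not set against each other, because each probe has its own brightness. The summed levels of marker lists are an exception: they add probes of unequal brightness, so the brightest probes dominate them. They are compared only between arrays and do not measure the amount of a cell type. In bulk RNA, a change in the number of cells of a type and a change in RNA per cell cannot be told apart.

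**Figure D1:**
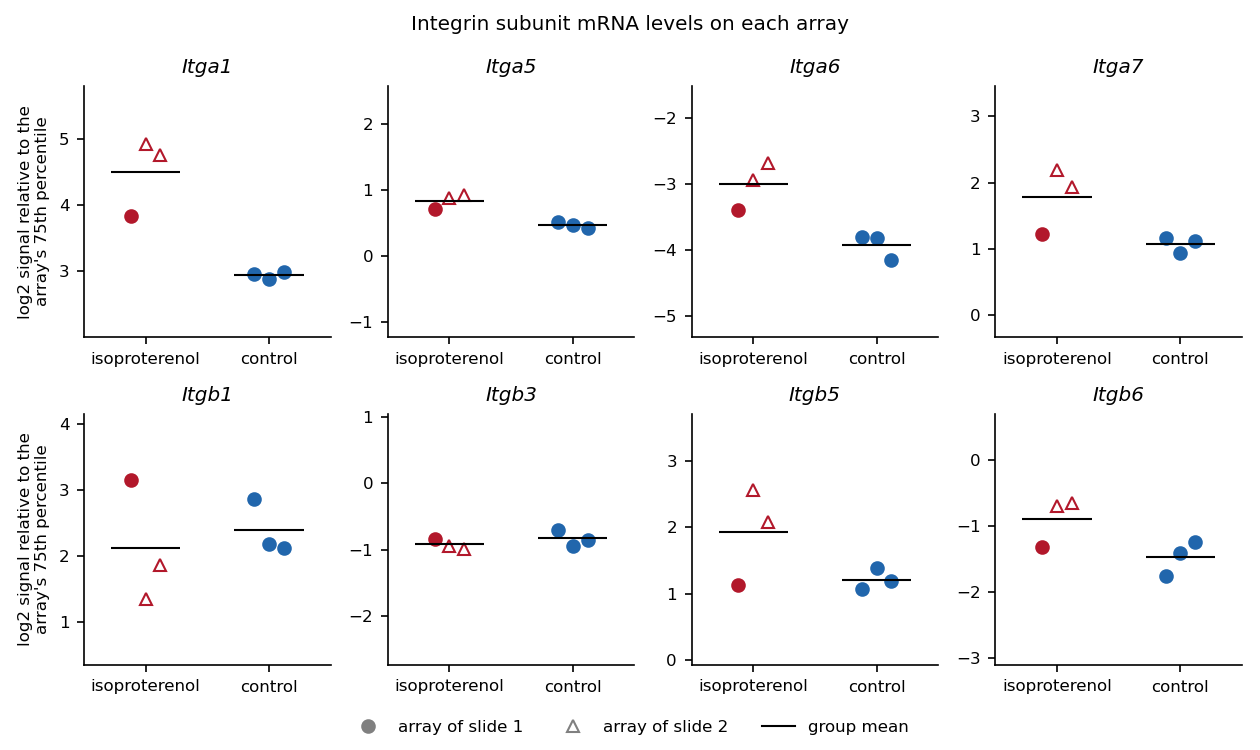
Level of each of the 8 integrin subunits on each array, as log2 signal relative to the array's 75th percentile, with isoproterenol on the left and control on the right; every panel spans the same number of log2 units, circles are arrays of slide 1, triangles arrays of slide 2 and bars group means. Itga1 was above the controls on all 3 isoproterenol arrays, whereas for Itga7, Itgb5 and Itgb6 the array of isoproterenol replicate 1 lay near the controls, and for Itgb1 it lay above them.

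Itga1 encodes the alpha1 chain, which with beta1 forms a receptor for collagens, among them the type IV collagen of basement membranes, and for laminin. The probe for transcript NM_030994 read 3.84, 4.92 and 4.76 in isoproterenol replicates 1 to 3, against 2.96, 2.89 and 2.99 in control replicates 1 to 3. All isoproterenol values were above all control values, and the controls lay within a narrow band. Itga1 rose by 1.56 ± 0.30 on the log2 scale, a fold of 2.95 (95% interval 0.86 to 2.27 in log2 units, adjusted p = 0.0182). On slide 1 alone the scanner signal was 8570 units in isoproterenol replicate 1, against 4260, 4310 and 4370 units in the controls. The change within that slide was 0.89 ± 0.14 (adjusted p = 0.0469, limma with 1 sample against 3, the lone sample being assumed to vary like the controls), and with slide as a block it was 0.89 ± 0.15 (adjusted p = 0.035). Both fits take the change from the slide 1 arrays, because slide 2 holds no control, so they are not separate checks. The value over all 6 arrays was larger than within slide 1, and isoproterenol replicates 2 and 3 stood above replicate 1. The call was kept without isoproterenol replicate 1 (1.90, adjusted p = 0.000803). That fit puts each group on a slide of its own, and 52.1% of all genes were called in it. The call was lost without any other single sample. Without control replicate 1, 2 or 3 the adjusted p was 0.0636, 0.0833 or 0.0821. Without isoproterenol replicate 2 or 3 it was 0.056 or 0.0721. The change was 1.36 to 1.58 in the fits that lost the call.

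The promoter of Itga1 is shown because it is the gene of the family with the largest change, and that of Itgb1 because beta1 is the only beta chain with which alpha1 pairs. Both are RefSeq windows of build GRCr8, from 250 bases before to 50 bases after the gene's start, printed in the direction of transcription. Itga1 lies on the minus strand at chr2:48545234-48545533 and Itgb1 on the plus strand at chr19:73602027-73602326. Capitals mark the letters TGACG (the half-site of the cAMP response element) and GGGCGG (the core of an Sp1 site) on either strand.
Itga1: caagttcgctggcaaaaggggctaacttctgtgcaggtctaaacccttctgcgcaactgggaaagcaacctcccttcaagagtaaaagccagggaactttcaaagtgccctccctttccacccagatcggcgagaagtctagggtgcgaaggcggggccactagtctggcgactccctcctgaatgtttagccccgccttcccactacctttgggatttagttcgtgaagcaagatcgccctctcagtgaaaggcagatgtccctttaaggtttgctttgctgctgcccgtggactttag
Itgb1: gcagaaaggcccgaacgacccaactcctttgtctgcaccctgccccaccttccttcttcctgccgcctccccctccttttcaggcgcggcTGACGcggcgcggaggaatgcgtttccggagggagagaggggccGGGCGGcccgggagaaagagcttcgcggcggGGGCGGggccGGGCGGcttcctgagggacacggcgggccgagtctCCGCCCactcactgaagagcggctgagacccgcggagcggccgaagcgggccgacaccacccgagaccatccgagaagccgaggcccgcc
The window of Itgb1 holds 1 TGACG, which starts 160 bases before the gene's start, and 4 matches to GGGCGG, which start 116, 85, 75 and 40 bases before it, the last on the minus strand. The window of Itga1 holds neither. TGACG, on either strand, occurs in 21.2% of all 33469 promoter windows of the same length and GGGCGG in 33.1%. The full cAMP response element TGACGTCA (1.83% of all windows) and the AP-1 site TGACTCA (4.63%) were found in 0 of the 7 windows available for the 10 listed genes. A CArG box, the binding motif of serum response factor (1.64% of all windows), was found in 1, that of Itgb6. These matches describe letters in a window and are not evidence of binding.

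Itga6 and Itga7 encode the alpha6 and alpha7 chains, laminin receptors when paired with beta1. Alpha7 is the main laminin-binding alpha chain of striated muscle, and alpha6 is found in embryonic heart muscle, endothelium and epithelia. Itga6 (NM_053725) read −3.39, −2.94 and −2.68 in isoproterenol replicates 1 to 3, against −3.80, −3.81 and −4.15 in the controls. The groups did not overlap. Itga6 rose by 0.92 ± 0.23 on the log2 scale, a fold of 1.89 (adjusted p = 0.0418). Its probe was dim: the scanner signal was 57.4, 27.0 and 38.9 units in isoproterenol replicates 1 to 3 and 39.2, 41.6 and 31.1 units in the controls, and it was not well above background in isoproterenol replicate 2. Within slide 1 the change was 0.54 ± 0.21 (adjusted p = 0.177), and the call was lost in 15 of 18 alternatives, among them quantile normalization, normexp and each fit without a control or without isoproterenol replicate 2 or 3.

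Itga7 (NM_030842) read 1.22, 2.19 and 1.93 in isoproterenol replicates 1 to 3, against 1.16, 0.93 and 1.11 in the controls. The array of slide 1 was barely above the highest control, and the arrays of slide 2 were well above it. The change of 0.72 ± 0.27 (95% interval 0.07 to 1.36) did not pass (adjusted p = 0.11), and within slide 1 it was 0.16 ± 0.17 (adjusted p = 0.556).

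Itga5 encodes the alpha5 chain of the classic fibronectin receptor, which recognises the arginine-glycine-aspartate motif and is prominent in fetal and stressed myocardium. Itga5 (NM_001108118) read 0.71, 0.88 and 0.92 in isoproterenol replicates 1 to 3, against 0.51, 0.47 and 0.42 in the controls. The groups did not overlap, and the spread within each was small. The change was 0.37 ± 0.16 (95% interval −0.01 to 0.74, adjusted p = 0.145) and 0.24 ± 0.14 within slide 1 (adjusted p = 0.314), and neither passed.

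Itgb1 encodes the beta1 chain, the common partner of alpha1, alpha5, alpha6 and alpha7. Itgb1 (NM_017022) read 3.16, 1.35 and 1.87 in isoproterenol replicates 1 to 3, against 2.87, 2.19 and 2.12 in the controls. Isoproterenol replicate 1 was the highest of all 6 arrays and replicates 2 and 3 were the lowest. The change was −0.27 ± 0.47 (95% interval −1.39 to 0.85, adjusted p = 0.703), and it had the opposite sign within slide 1, at 0.76 ± 0.34 (adjusted p = 0.226). The interval spans 0 widely on both sides, so no direction can be given for Itgb1.

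The 4 alpha chains were also set against Itgb1 array by array, as the change from the control mean of the alpha gene minus that of Itgb1. This difference shows unequal change and says nothing of either gene alone. For Itga1 it was 0.13 in isoproterenol replicate 1 and 3.01 and 2.35 in replicates 2 and 3, against −0.46, 0.14 and 0.31 in the controls. For Itga7 it was −0.61 in isoproterenol replicate 1 and 2.16 and 1.39 in replicates 2 and 3, against −0.38, 0.06 and 0.32 in the controls. For Itga5 it was −0.52, 1.45 and 0.98 in isoproterenol replicates 1 to 3, against −0.44, 0.21 and 0.23 in the controls. For Itga6 it was −0.23, 2.02 and 1.77, against −0.36, 0.31 and 0.04. A rise of the alpha genes relative to Itgb1 was thus seen only on the slide 2 arrays. On slide 1 isoproterenol replicate 1 lay within the range of the controls for Itga1 and Itga6, and below all controls for Itga5 and Itga7. Treatment and slide cannot be told apart in this difference.

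Itgb3, Itgb5 and Itgb6 encode beta chains that pair with alphav into receptors for vitronectin and other ligands with the arginine-glycine-aspartate motif. Beta6 is typical of epithelia, where it activates latent TGF-beta, and beta3 is also the platelet fibrinogen receptor's beta chain. Itgb5 (NM_147139) read 1.13, 2.57 and 2.08 in isoproterenol replicates 1 to 3, against 1.07, 1.38 and 1.19 in the controls. Isoproterenol replicate 1 lay among the controls, and replicates 2 and 3 lay above them. The change was 0.72 ± 0.36 (95% interval −0.14 to 1.57, adjusted p = 0.197), and −0.08 ± 0.18 within slide 1 (adjusted p = 0.785).

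Itgb6 (NM_001004263) read −1.32, −0.70 and −0.65 in isoproterenol replicates 1 to 3, against −1.76, −1.41 and −1.25 in the controls. Here too isoproterenol replicate 1 lay within the control range. The change was 0.58 ± 0.25 (95% interval −0.01 to 1.17, adjusted p = 0.146), and 0.15 ± 0.24 within slide 1 (adjusted p = 0.706). Itgb3 (NM_153720) read −0.84, −0.94 and −0.99 in isoproterenol replicates 1 to 3, against −0.70, −0.94 and −0.85 in the controls. Its groups overlapped, and the change of −0.09 ± 0.16 had the narrowest interval among the beta chains (95% interval −0.48 to 0.29, adjusted p = 0.695). Within slide 1 it was −0.01 ± 0.17 (adjusted p = 0.976).

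**Figure D2:**
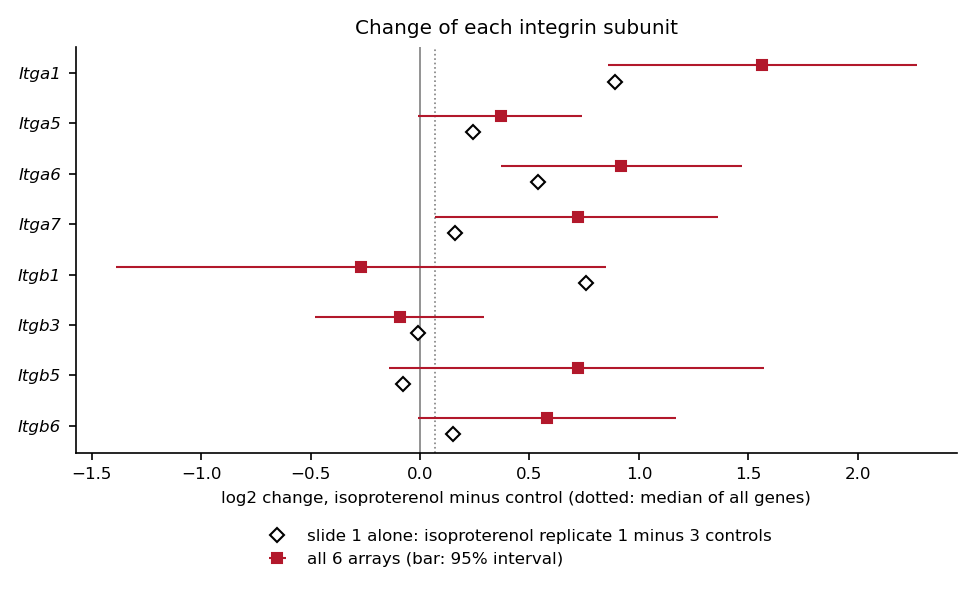
Change of each integrin subunit in log2 units, isoproterenol minus control: squares with bars are the value over all 6 arrays with its 95% interval, open diamonds the value from slide 1 alone, and the dotted line is the median change of all genes (0.07). Itga1 is the member with the largest change over all arrays (1.56) and within slide 1 (0.89), and Itgb1 lies on opposite sides of 0 in the 2 comparisons.

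Of the 8 members 2 rose, 0 fell and 6 did not pass, where 16.1% of all genes passed, 10.2% rising and 5.92% falling. Within slide 1, Itga1 was the 1 member called, and 5.23% of all genes were called there, 2.5% rising and 2.73% falling. With slide as a block Itga1 was the 1 member called, against 7.29% of all genes, 3.66% rising and 3.64% falling. Slide 2 holds no control, so this fit takes the change from the slide 1 arrays alone and is not a second check. Leaving out isoproterenol replicate 1, which puts each group on a slide of its own, gave 6 members that rose, but 52.1% of all genes were called in that fit, 29.4% rising and 22.7% falling. The groups did not overlap for 4 members, Itga1, Itga5, Itga6 and Itga7, and for 41.4% of all genes. In all 4 the 3 isoproterenol values lay above the 3 control values, as they did for 25.6% of all genes. The median change of the members was 0.65, against 0.07 for all genes, and within slide 1 it was 0.20, against 0.11.

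**Figure D3:**
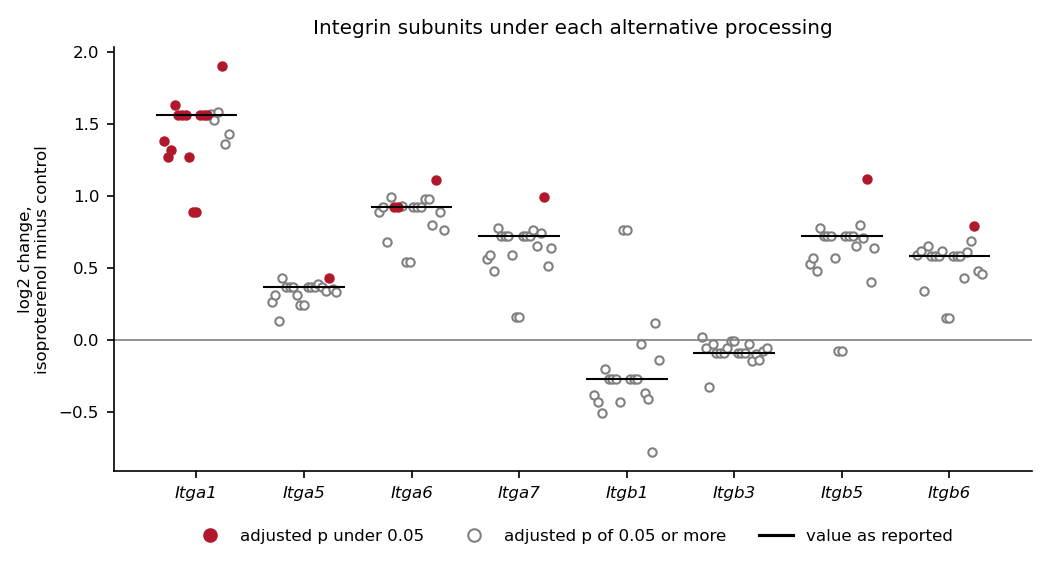
Log2 change of each integrin subunit, isoproterenol minus control, under each alternative processing (points, filled where the adjusted p was under 0.05) beside the value as reported (bar). Itga1 ranged from 0.89 to 1.90, and for Itga5, Itga7, Itgb5 and Itgb6 a single alternative gave a call, the fit without isoproterenol replicate 1.

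A further 9 integrin subunits were tested, of which 1 rose (11.1%), near the 10.2% of all genes. Itga8, whose product pairs with beta1 and binds fibronectin, tenascin and nephronectin and is known from smooth muscle and fibroblasts, read 2.11, 2.36 and 2.36 in isoproterenol replicates 1 to 3, against 1.18, 1.42 and 1.57 in the controls. It rose by 0.89 ± 0.18 on the log2 scale (adjusted p = 0.0231), with 0.72 on slide 1 alone (adjusted p = 0.109). The other subunits that pair with beta1, Itga4 (0.65 ± 0.24, adjusted p = 0.106) and Itga10 (0.22 ± 0.17, adjusted p = 0.357; −0.02 when the percentile was taken over the probes that all arrays detected), did not pass. Itgb4, the partner of alpha6 in hemidesmosomes, was at 0.48 ± 0.25 (adjusted p = 0.21; −0.02 within slide 1). The leukocyte chains Itgae (0.48), Itgb7 (0.42), Itgb2 (−0.24), Itgad (−0.66) and Itgal (−1.06) had adjusted p from 0.0977 to 0.447, and Itgal was at 0.22 under normexp and 0.17 within slide 1. Over the 17 integrin subunits tested in all, 3 rose and 0 fell, where 10.2% of all genes rose and 5.92% fell.

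Matrix proteins that integrins bind moved in both directions. Of 28 tested genes of a list of ligands 10 rose (35.7%), 4 fell and 14 did not pass, with a median change of 0.58. Of all genes 10.2% rose and 5.92% fell, with a median of 0.07. With slide as a block 4 ligands rose and 3 fell, where 3.66% of all genes rose and 3.64% fell. The ligand median within slide 1 was 0.35, against 0.11 for all genes. The matricellular proteins Ccn2 and Ccn1 rose by 2.29 ± 0.48 and 2.08 ± 0.29 (1.74 and 1.78 within slide 1, adjusted p = 0.199 and 0.0747). Ccn1 read 5.66, 6.17 and 6.07 in isoproterenol replicates 1 to 3, against 4.43, 3.50 and 3.72 in the controls, so the groups did not overlap. Tnc, encoding tenascin C, rose by 1.82 ± 0.20 (adjusted p = 0.00488), and Ltbp1, which holds latent TGF-beta in the matrix, by 1.73 ± 0.16 (adjusted p = 0.00293). Both changes were of the same size within slide 1, at 1.81 and 1.73, and passed there (adjusted p = 0.033 and 0.0274).

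Among the ligands that fell, Postn, encoding periostin, was at −1.32 ± 0.21 and Col3a1, a fibrillar collagen, at −1.10 ± 0.19 (−0.93 and −0.92 within slide 1, adjusted p = 0.0469 and 0.0453). Agrn, encoding agrin, fell, at −1.62 ± 0.21 (−1.58 within slide 1, adjusted p = 0.0358), but was well above background on 1 isoproterenol array and at 0.14 under normexp. Lamc3, the gamma3 chain, fell, at −1.78 ± 0.36, but did not pass within slide 1 (−0.95, adjusted p = 0.0644). It was well above background on 1 isoproterenol array and was at −0.12 under normexp (adjusted p = 0.664).

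Laminin and collagen chains named here were picked out of this list after the values had been seen, since alpha6, alpha7 and alpha1 bind them. Beside their counts, 10.2% of all genes rose and 5.92% fell. Of these 7 laminin chains 4 rose, 1 fell and 2 did not pass, Lamb2 at −0.48 ± 0.26 (adjusted p = 0.224) and the dim Lama1 at −0.23 ± 0.62 (adjusted p = 0.812; 0.51 on slide 1 alone and 0.65 under normexp). Lamc1, the gamma chain of most basement membranes, read 6.42, 6.73 and 6.86 in isoproterenol replicates 1 to 3, against 5.15, 5.02 and 4.95 in the controls, and rose by 1.63 ± 0.18 (adjusted p = 0.0051). Lama5 rose by 1.38 ± 0.18 and Lamb3 by 1.43 ± 0.25, and Lama4, the alpha chain of vascular and muscle laminins, by 0.86 ± 0.21. Within slide 1 Lamc1, at 1.37, and Lama5, at 1.20, passed (adjusted p = 0.0325 and 0.04), while Lamb3, at 0.99, and Lama4, at 0.81, did not (adjusted p = 0.0782 and 0.141). Of 4 collagen chains 0 rose, Col3a1 fell and 3 did not pass: Col4a1, a basement membrane chain, was at 0.68 ± 0.20 (adjusted p = 0.0591), Col1a2 at 0.65 ± 0.20 (0.072) and Col1a1 at 0.31 ± 0.17 (0.229).

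Of 38 tested genes of the adhesion complex inside the cell 7 rose (18.4%), 2 fell and 29 did not pass, with a median of 0.51. Of all genes 10.2% rose and 5.92% fell, and with slide as a block 3.66% rose and 3.64% fell. Actn1, which encodes the non-muscle actin crosslinker alpha-actinin-1 that also binds integrin tails, read 2.21, 2.57 and 2.70 in isoproterenol replicates 1 to 3, against 0.17, −1.01 and −0.83 in the controls. Its rise was 3.05 ± 0.34 (adjusted p = 0.00481), with 2.77 on slide 1 alone (adjusted p = 0.0555). For the other genes the change within slide 1 and its adjusted p stand in brackets. Zyx, encoding zyxin, a sensor of strained actin at adhesions, rose by 1.67 ± 0.25 (1.39, 0.082). Tln1, the talin that switches integrins on, rose by 1.36 ± 0.30 (1.01, 0.195), Flna, a filamin that competes with talin, by 1.11 ± 0.23 (0.84, 0.138), and Krit1, which counteracts the integrin inhibitor Icap1, by 0.98 ± 0.26 (0.46, 0.163). Kank2, a talin-binding protein of the adhesion rim, fell, at −1.03 ± 0.25 (−0.65, 0.0938), and Rap1a, a small GTPase that recruits talin, at −0.81 ± 0.21 (−0.49, 0.165). With slide as a block 2 of these 38 genes rose and 0 fell, where 3.66% of all genes rose and 3.64% fell. Their median change within slide 1 was 0.30, against 0.11 for all genes.

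Of 21 membrane partners of integrins 4 rose (19.0%), 3 fell and 14 did not pass, with a median of 0.50. Of all genes 10.2% rose and 5.92% fell. With slide as a block 2 partners rose and 1 fell, where 3.66% of all genes rose and 3.64% fell. The median of the partners within slide 1 was 0.28, against 0.11 for all genes. Plaur, the urokinase receptor, which associates with integrins, read 0.58, 1.18 and 1.26 in isoproterenol replicates 1 to 3, against −1.02, −1.46 and −1.30 in the controls. Its rise was 2.27 ± 0.24 (adjusted p = 0.00455), with 1.84 on slide 1 alone (adjusted p = 0.0335). Cd151, a tetraspanin that binds laminin-binding integrins, rose by 1.30 ± 0.23 (0.89 within slide 1, adjusted p = 0.0634), and the syndecans Sdc4 and Sdc1, matrix co-receptors, by 1.34 ± 0.24 and 0.63 ± 0.16 (1.02 and 0.70, 0.079 and 0.0854). Sgca, a sarcoglycan of the dystrophin complex, the other matrix linkage of muscle, fell, at −1.39 ± 0.19 (−1.65, 0.0294), Cd47, which associates with alphavbeta3, at −0.84 ± 0.22 (−0.82, 0.166), and Cav3, muscle caveolin, at −0.76 ± 0.18 (−0.55, 0.115).

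**Figure D4:**
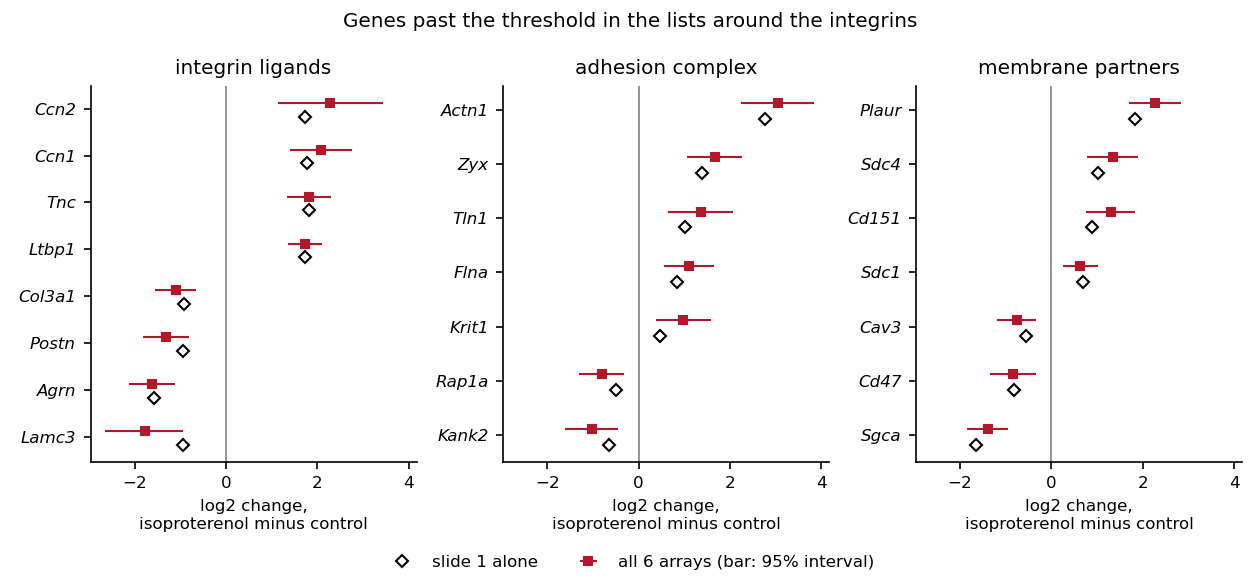
Log2 change, isoproterenol minus control, of the genes past the threshold in the lists of integrin ligands, adhesion complex genes and membrane partners, at most 5 per direction and list: squares with bars are all 6 arrays with the 95% interval and open diamonds slide 1 alone. The groups did not overlap for any gene shown, so its direction within slide 1 was fixed by the same values and is no further check. Tnc, Ltbp1, Agrn and Cd47 have nearly the same value in both.

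Some markers of other cells that carry these integrins moved as well, and their part in the changes of Itga1, Itga6 and Itga8 was not tested. Beside the counts of all marker lists, 10.2% of all genes rose and 5.92% fell. The share that rose was near this for the endothelial (11.1%), leukocyte (14.3%) and cardiomyocyte (9.09%) lists. Of 9 smooth muscle and pericyte markers 2 rose, Acta2 by 1.91 ± 0.50 and Tagln by 1.77 ± 0.34 (1.16 and 1.03 within slide 1, adjusted p = 0.316 and 0.0795), and the summed level of the list, in units of the array's 75th percentile, was 218 to 498 in isoproterenol samples and 84.9 to 150 in controls. Acta2 and Tagln made up 95.9% to 99.3% of that sum, a share that also reflects probe brightness, so the sum mostly repeats these 2 genes. The other 7 markers summed to 3.53 to 3.73 in isoproterenol samples and 3.49 to 3.73 in controls. Those 7 are the markers not called as risen in these same data, so their sum is no test of the list. Over the list 4 markers had a higher mean and 5 a lower mean with isoproterenol, with a median change of −0.16 (0.29 within slide 1). Of 8 epicardial and epithelial markers 3 rose, Krt18 by 2.60 ± 0.24, Krt8 by 1.68 ± 0.20 and Epcam by 1.29 ± 0.23 (2.22, 1.36 and 0.85 within slide 1, adjusted p = 0.029, 0.0325 and 0.0583), and the summed level was 34.6 to 52.9 in isoproterenol samples and 20.5 to 22.5 in controls. Without these 3 genes the sum was 16.7 to 25.3 in isoproterenol samples and 14.6 to 16.2 in controls. They were left out because they rose in these same data, so that sum too is no test of the list. Of the 8 markers 5 had a higher mean with isoproterenol, with a median change of 0.59 (0.32 within slide 1).

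Of 10 fibroblast markers 2 rose, Thy1 (1.06 ± 0.19) and Ddr2 (1.03 ± 0.24), 4 fell, led by Lum (−1.60 ± 0.22), Postn and Col3a1, and the summed level was 133 to 178 in isoproterenol samples and 156 to 165 in controls. Over the list 4 markers had a higher mean and 6 a lower mean with isoproterenol, with a median change of −0.48 (−0.84 within slide 1). With slide as a block 1 of these 10 markers rose and 2 fell, where 3.66% of all genes rose and 3.64% fell. Within slide 1 Thy1 was at 0.79, Ddr2 at 0.53 and Lum at −1.54, and these did not pass there. Of 9 endothelial markers Flt1 rose (2.10 ± 0.25, but 0.88 with the median over its 2 probes) and Kdr fell (−1.22 ± 0.17, but −0.05 under normexp), with summed levels of 15.5 to 16.7 in isoproterenol samples and 15.6 to 17.5 in controls. Both passed within slide 1, at 1.79 and −1.27 (adjusted p = 0.0473 and 0.0426). Of 7 leukocyte and platelet markers Cd14 rose (1.24 ± 0.24) and Cd3e fell (−1.62 ± 0.31, but 0.13 under normexp), with summed levels of 23.7 to 30.1 in isoproterenol samples and 19.7 to 32.1 in controls. Neither passed within slide 1, at 0.97 and −1.13 (adjusted p = 0.0885 and 0.0755). Of the 11 cardiomyocyte markers Myh6 rose, by 1.23 ± 0.23, and 10 had a higher mean with isoproterenol. Their median change was 0.34 (0.09 within slide 1). The summed level was 2310 in isoproterenol replicate 1 and 3540 and 3520 in replicates 2 and 3, against 1870 to 2270 in controls. On slide 1 the isoproterenol sum thus lay just above the highest control, and the larger sums were those of slide 2. Myh6 did not pass within slide 1 (0.82, adjusted p = 0.0902), with slide as a block (0.82, 0.0687) or after quantile normalization (0.63, 0.063), and in the authors' deposited table it was at 0.63 (0.061). Every marker tested was well above background on at least 3 arrays, as the filter required. Kdr and Cd3e were so on all 3 control arrays but on only 1 isoproterenol array.

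The genes whose values over the 6 arrays were most like those of Itga1, among 13043 named genes outside the lists, were Pafah1b1 and Mgat2, with a root mean square difference of 0.047 and 0.067 log2 units after each gene was centred on its own mean. The 1 most like Itga6 that is named here was Wdr43, at 0.032. With 6 arrays that share treatment and slide, these are descriptions of the profile and no more.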

How the data were processed

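RNA labelled with Cy3 was hybridised to 6 one-colour arrays, 3 per group. Agilent Feature Extraction software, version 11.0.1.1 per the file headers, produced the deposited intensity values, already background-subtracted. No spot was saturated. The authors also deposited an mRNA table of log2 values, whose making the sources used here do not give. Those deposited log2 values lay close to quantile-normalized log2 intensities (median absolute difference at most 5.42e-07 per array). Over all matched rows the 95th percentile of the difference was 0.467 and 0.242 in isoproterenol replicates 2 and 3, on slide 2. On the slide 1 arrays it was at most 0.000611.

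Scanner probes carry design numbers, so the 20734 table rows were matched to probes by their values on the 4 slide 1 arrays (distance under 0.05 and under 0.25 of that to the next probe), which placed 20639. Names came from RefSeq (GRCr8) and covered 13956 of 14757 NM accessions. Outlier spots were left out, spots of a probe averaged, the 75th percentile over non-control probes subtracted and each gene represented by its brightest probe. Probes well above background on at least 3 arrays were tested, a filter that removed no matched gene. Changes were fitted with limma 3.58.1 in R 4.3.3, which was tested on simulated data. There 46% of true changes of 1.5 log2 units and 90% of those of 3 were called, and 3.5% of the calls were false. Smaller changes can thus easily be missed. The simulated noise was independent between arrays and held no slide effect, so it does not vouch for calls where slide and treatment coincide. The scanner files used here hold median, not mean, spot signals, so normexp (offset 50) was run on the medians. Genes named from the lists were those past the threshold, at most 5 per direction and list (3 for markers). Some genes this rule names are not reported here. Members and lists were chosen with earlier results of these data known. The number of arrays limits the precision.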

Additional observations from a re-analysis of the deposited data

How the results depend on the processing

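The 19 alternatives changed background correction, scaling, filter, probe choice, the table used, slide, replicate block, prior or the samples; the prior over all non-control probes was added after seeing the data. The change of Itga1 was above 0 in all 19 and passed in 14, but these are not independent checks. Itga1 has 1 probe, well above background on all 6 arrays, so the filters and the choice of probe cannot alter its value. Slide as a block and slide 1 alone give the same estimate. Leaving out 1 sample gave 1.36 to 1.90, and the call was kept only without isoproterenol replicate 1, where slide and treatment coincide fully. Itga6 lost its call under normexp (0.89), quantile normalization (0.92), a percentile taken over commonly detected probes (0.68), median scaling (0.99), the authors' deposited table (0.93), slide as a block or slide 1 alone (0.54), the replicate block (0.92), a trended robust prior (0.92) and the added prior (0.92, adjusted p = 0.0501), and ranged from 0.76 to 1.11 without 1 sample; its probe has no value under the filter on all 6 arrays. The number of members that rose was 1, Itga1, under each of those 10 alternatives and that filter, and 0 to 6 without 1 sample. Without 1 sample Itga5 ranged from 0.33 to 0.43, Itga7 from 0.51 to 0.99, Itgb1 from −0.78 to 0.12, Itgb5 from 0.40 to 1.12 and Itgb6 from 0.43 to 0.79, and the calls of Itga5, Itga7, Itgb5 and Itgb6 came without isoproterenol replicate 1. Itgb1 was at 0.76 and Itgb5 at −0.08 with slide as a block and on slide 1 alone, and Itgb3 was at 0.02 under normexp; the cause was not tested. Among other genes the sign turned for Itgb4 (−0.02) and Itgal (0.17) with slide as a block and on slide 1 alone, for Itga10 (−0.02) with the percentile over commonly detected probes, and under normexp for Itgal (0.22), Agrn (0.14) and Cd3e (0.13). Lama1 was at 0.65 under normexp, 0.51 with slide as a block and on slide 1 alone, and −0.65 to 0.56 without 1 sample.

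All genes past the threshold numbered 3207, 63.2% of them higher, but 1454 with slide as a block (50.1% higher), 1043 on slide 1 alone (47.8%), 1454 with the replicate block and 369 to 10395 without 1 sample, the highest without isoproterenol replicate 1. Higher calls were 72.5% with the filter on all 6 arrays, 73.8% under normexp and 40.9% with the percentile over commonly detected probes, where the median of all genes was 0.37 and −0.17. Same-numbered samples did not deviate together (r = 0.006, 0.052 and −0.023), and neither did samples of unlike number (r from −0.088 to 0.077). With 3 samples per group and isoproterenol replicates split over 2 slides, this check cannot exclude a pairing. Of 23 list genes named as changed, 9 passed with slide as a block. All 23 were named because they passed over all 6 arrays, and for each the groups did not overlap. Their kept direction on slide 1 alone and with slide as a block was thus fixed by that choice and is no further check. Signal over background on slide 2 limits dim genes such as Itga6, Agrn and Lamc3.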
